A study of Mus musculus with 10 samples.

Results

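Among 10 clonal lines of mouse 3T3-L1 preadipocytes, 4 gave a bright signal for the phosphatase gene Ppef1 and 6 a dim one. The 4 lines selected on a Ppef1 signal above 8.5 log2 units were clones 1E7, 2F1 and 4H4, classed Low in adipogenic potential, and clone 5D4, classed High. The 6 others were clones 2D7 and 4D11, classed Low, and clones 3F4, 4D2, 4E3 and 5C4, classed High. Below they are called the Ppef1-bright and the Ppef1-dim lines, and set A and set B in the plots. 3T3-L1 cells come from mouse embryo fibroblasts and turn into fat cells under a cocktail of insulin, dexamethasone and IBMX. The lines had been grown from single colonies after serial dilution and kept below confluence. Each was called Low or High from the triglyceride it stored after differentiation. RNA came from untreated proliferating cells in DMEM with serum, before any differentiation, with 1 array per line. All 10 lines shared this origin and culture. A line is 1 clone, so the spread between lines holds clonal and technical variation together, and no line has a second array. In such bulk RNA, fewer cells with a transcript and less transcript per cell cannot be told apart.

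Ppef1 encodes a serine/threonine protein phosphatase with calcium-binding EF-hand domains. It is the mammalian relative of the fly phosphatase rdgC, and it is known from sensory neurons rather than from fat tissue. Phosphatases of this family remove phosphate groups from proteins, and their EF hands bind calcium. Preadipocytes are fibroblast-like cells that express Pparg, the nuclear receptor that drives fat cell formation, and switch to lipid storage when induced.

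Because the lines were chosen by a value measured on these arrays, the differences between the bright and dim lines are a description and no test. They are given as log2 intensities after RMA, the normalization named in the submitters' processing notes, where 1 unit is a doubling. The upstream bases of Ppef1 itself, of Kif21a and Bnc1 (higher in the bright lines) and of Tubb2a (lower) are shown so that these genes can be compared. Each sequence is the 250 bases before the gene's start in RefSeq (GRCm38.p6), written along the gene. Capitals mark TATAAA, the core of a TATA box, and GGGCGG, the core of a GC box. The AP-1 motif TGANTCA was searched as well, and each motif on both strands. The capitals of different motifs do not overlap in these windows.
Ppef1 (chrX:160719973-160720222): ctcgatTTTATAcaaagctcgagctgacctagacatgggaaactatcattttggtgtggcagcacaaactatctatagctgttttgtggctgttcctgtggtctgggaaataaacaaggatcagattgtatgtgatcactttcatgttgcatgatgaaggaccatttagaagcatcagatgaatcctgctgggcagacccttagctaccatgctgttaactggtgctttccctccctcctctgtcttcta
Kif21a (chr15:91049952-91050201): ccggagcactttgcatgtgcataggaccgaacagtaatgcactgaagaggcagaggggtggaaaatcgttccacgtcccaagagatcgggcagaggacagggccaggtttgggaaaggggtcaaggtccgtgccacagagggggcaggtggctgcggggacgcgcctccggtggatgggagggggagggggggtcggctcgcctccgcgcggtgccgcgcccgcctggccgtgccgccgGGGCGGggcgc
Bnc1 (chr7:81992300-81992549): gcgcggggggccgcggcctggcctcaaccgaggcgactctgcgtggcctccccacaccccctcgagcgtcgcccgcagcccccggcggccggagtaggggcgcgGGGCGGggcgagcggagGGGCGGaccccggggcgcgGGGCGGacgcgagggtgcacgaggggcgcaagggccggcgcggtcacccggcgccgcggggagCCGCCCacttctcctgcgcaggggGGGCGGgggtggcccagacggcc
Tubb2a (chr13:34078009-34078258): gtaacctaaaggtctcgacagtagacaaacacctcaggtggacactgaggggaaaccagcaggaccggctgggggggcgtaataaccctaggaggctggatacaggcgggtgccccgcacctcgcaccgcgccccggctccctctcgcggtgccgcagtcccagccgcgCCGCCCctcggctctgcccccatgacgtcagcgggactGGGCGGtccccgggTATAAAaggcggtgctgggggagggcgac
All 4 genes lie on the minus strand. The Ppef1 window held TATAAA on the opposite strand, beginning 244 bases before the start as written here, and it held no GGGCGG. The Tubb2a window held TATAAA as written, beginning 29 bases before the start, and 2 matches to GGGCGG. Bnc1 had 5 matches to GGGCGG and Kif21a had 1, beginning 11 bases before the start. None of these windows held the AP-1 motif. Of 32851 windows of this length, 12.4% held TATAAA, and the shares for the GC box and AP-1 letters were 32.7% and 6.75%. A match describes the letters and is no evidence of a bound factor.

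Ppef1 (Entrez gene 237178, probe set 10607602, the single probe set of the gene) lies on chromosome X. Its log2 signal was 9.89 in 4H4, 9.80 in 2F1, 9.57 in 1E7 and 9.06 in 5D4. In the dim lines it was 7.16 in 2D7, 6.64 in 4E3, 6.15 in 4D11, 5.68 in 3F4, 5.61 in 4D2 and 5.52 in 5C4. The lowest bright line, 5D4, thus stood at 9.06 and the highest dim line, 2D7, at 7.16, with the dividing level between them. The 25th percentile of an array ran from 6.38 to 6.47, so 4 of the dim lines lay below it and 2D7 and 4E3 above it. The means were 9.58 ± 0.37 (SD, n = 4) and 6.13 ± 0.66 (SD, n = 6), a difference of 3.45 that the selection itself made. Because the dim mean lay below the 25th percentile of the arrays, no fold is given for it. Both adipogenic classes occurred in both sets. The bright lines held 3 Low and 1 High line and the dim lines 2 Low and 4 High lines, and Fisher's exact test of class against set gave a two-sided p of 0.524. It is given as a description, since the 4 lines were picked as a set that crosses the classes, and it does not show that class and Ppef1 were unrelated.

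**Figure D1:**
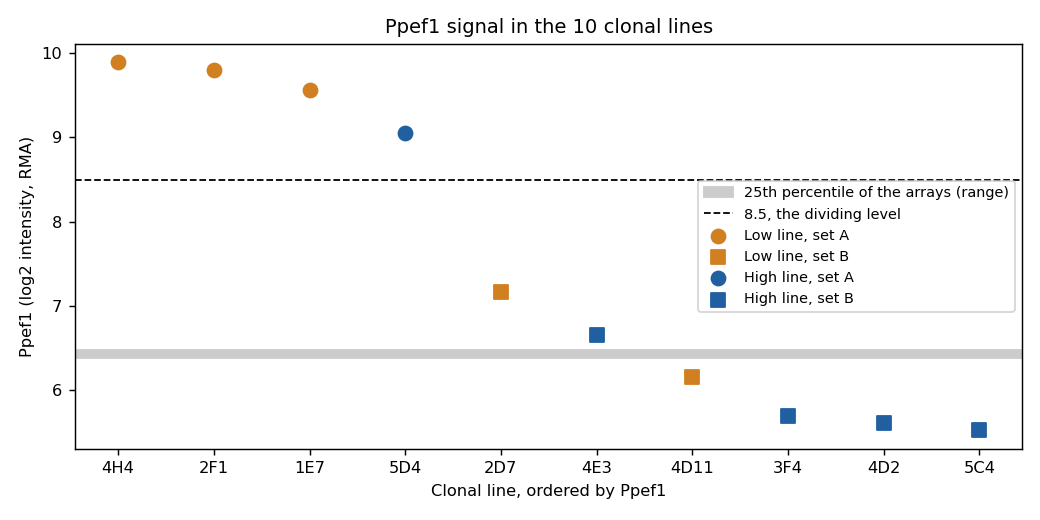
Ppef1 log2 intensity (vertical axis) in each of the 10 lines, ordered by signal, with circles for set A, squares for set B, orange for Low and blue for High lines. The dashed line is the 8.5 dividing level and the grey band the range of the arrays' 25th percentiles. The 4 bright lines sit between 9.06 and 9.89 and the 6 dim lines between 5.52 and 7.16.

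All lines carried the marker profile of fibroblasts. All 9 fibroblast and preadipocyte markers lay above the array median in every line, with a mean of 12.38 to 12.53 in the bright and 12.28 to 12.66 in the dim lines. Of the markers of other cells, 1 of 6 for macrophages and leukocytes, 0 of 5 for endothelium, 1 of 6 for epithelium, 1 of 6 for nerve and glia, 0 of 5 for skeletal muscle and 1 of 5 for mature fat cells lay above the median in every line. Those above it in no line were 3 of 6, 5 of 5 and 5 of 6 for macrophages and leukocytes, endothelium and epithelium. For nerve and glia, skeletal muscle and mature fat cells they were 4 of 6, 3 of 5 and 3 of 5. Any others were above it in some lines only. None of the fibroblast or other markers separated the 2 sets. The array medians ran from 7.74 to 7.84. No source used here names an array batch, so a batch was not tested.

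The signals of 229 of 16410 tested genes did not overlap between the Ppef1-bright and Ppef1-dim lines. Of these, 124 (0.756%) were higher and 105 (0.64%) lower in the bright lines, Ppef1 itself left out. After each array was centred on its median the split was 168 higher and 67 lower, so the balance between the directions depends on scaling. Most of the separated genes differed little, with a median absolute difference of 0.25. Only 23 of the higher and 11 of the lower genes differed by at least 1.5-fold, and 3 and 3 by at least 2-fold. In limma, at an adjusted p under 0.05, 1 gene (0.00609%), Kif21a, was higher and 0 were lower. Before adjustment, 622 higher and 492 lower genes had a p under 0.05. These figures describe the contrast that picked the lines and carry no weight as tests. With any 1 line left out, the count without overlap was 148 to 345 higher and 116 to 526 lower, and the most came without 2F1. Fewer lines overlap less often by construction.

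The largest difference among the separated genes was in Emb. It encodes embigin, a membrane glycoprotein that accompanies monocarboxylate transporters. Its signal was 10.29 in 4H4, 10.25 in 5D4, 9.83 in 1E7 and 9.11 in 2F1, against 9.09 in 4D2, 8.89 in 4E3, 8.79 in 4D11, 8.08 in 3F4, 7.67 in 5C4 and 4.70 in 2D7. The closest lines across the sets, 2F1 and 4D2, differed little, and 2D7 stood far below all others and under the 25th percentile of its array. The difference was 2.00 (SE 0.71).

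Bnc1, which encodes the zinc finger protein basonuclin, measured 11.21 in 4H4, 11.16 in 1E7, 10.88 in 5D4 and 10.63 in 2F1. The dim lines ran from 9.15 in 3F4 to 10.48 in 4E3, and the difference was 1.13 (SE 0.23). Il18rap, an accessory chain of the interleukin-18 receptor, measured 9.16 in 4H4, 8.84 in 5D4, 8.70 in 1E7 and 8.04 in 2F1, against 7.18 to 7.85 in the dim lines. In both genes the High line 5D4 lay inside the range of the 3 bright Low lines. The difference of Il18rap was 1.08 (SE 0.20).

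Another 9 genes completed the 12 with the largest differences on the higher side. They included surface and secreted enzymes. Anpep, aminopeptidase N, was at 10.15 ± 0.13 in the bright (SD, n = 4) and 9.31 ± 0.53 in the dim lines (SD, n = 6). Pla2g7, which inactivates platelet-activating factor, was at 12.10 ± 0.29 and 11.27 ± 0.27 in the same order. Slc16a10, a transporter of aromatic amino acids, was at 7.61 ± 0.17 and 6.78 ± 0.21, and Spon2, a secreted matrix protein, at 8.89 ± 0.48 and 8.06 ± 0.20. The transcription factor genes among them were Hey1, a repressor induced by Notch, with a difference of 0.82 (SE 0.19), and Etv1, an ETS factor, with 0.80 (SE 0.19). The microtubule-binding proteins Clip4 and Eml5 differed by 0.99 and 0.81, and the tyrosine phosphatase gene Ptpn22 by 0.77.

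Tubb2a, a beta-tubulin gene, had the largest difference of means among the separated genes on the lower side. It was uniform in the bright lines, at 8.30 in 1E7, 8.35 in 2F1, 8.40 in 4H4 and 8.56 in 5D4. The dim lines read 8.71 in 4D11, 9.77 in 4E3, 10.49 in 5C4, 10.52 in 4D2, 10.56 in 2D7 and 10.78 in 3F4. Clone 4D11 therefore sat beside the bright lines, while the other 5 dim lines were more than 1 unit above them. The difference was -1.74 (SE 0.33).

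Sirpa, the receptor for CD47 on the cell surface, read 7.82, 7.70, 7.46 and 8.01 in 1E7, 2F1, 4H4 and 5D4. It was 8.02 in 4D11, 8.13 in 4E3, 8.24 in 5C4, 9.27 in 3F4, 10.32 in 2D7 and 10.46 in 4D2. Only 3 of the dim lines were clearly above the bright ones. The difference was -1.33 (SE 0.47). Chrdl1, a secreted antagonist of bone morphogenetic proteins, ran from 7.02 to 8.03 in the bright and from 8.28 to 9.46 in the dim lines, a difference of -1.21 (SE 0.25).

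The remaining 9 lower genes differed by -0.72 to -0.56. Among receptors, Glrb, the beta subunit of the glycine receptor, differed by -0.72 and the surface receptor gene Cd93 by -0.70. The interleukin-17 receptor gene Il17ra differed by -0.61 and the Wnt receptor gene Fzd4 by -0.56. In Cd93 the sets nearly touched, at 8.64 in 5D4 and 8.65 in 4D11. The mean of Cd93 was 8.71 in the dim Low and 9.37 in the dim High lines. The chemokine gene Ccl17 was tight in both sets, at 9.60 ± 0.11 in the bright (SD, n = 4) and 10.22 ± 0.15 in the dim lines (SD, n = 6). Cnp, a cyclic nucleotide phosphodiesterase best known from myelin, was at most 7.06 in the bright lines and ran from 7.37 to 8.29 in the dim lines. Kif5c, a kinesin motor, differed by -0.64, the Golgi-associated kinase gene Gask1b by -0.63 and the cell surface proteoglycan gene Gpc6 by -0.60.

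**Figure D2:**
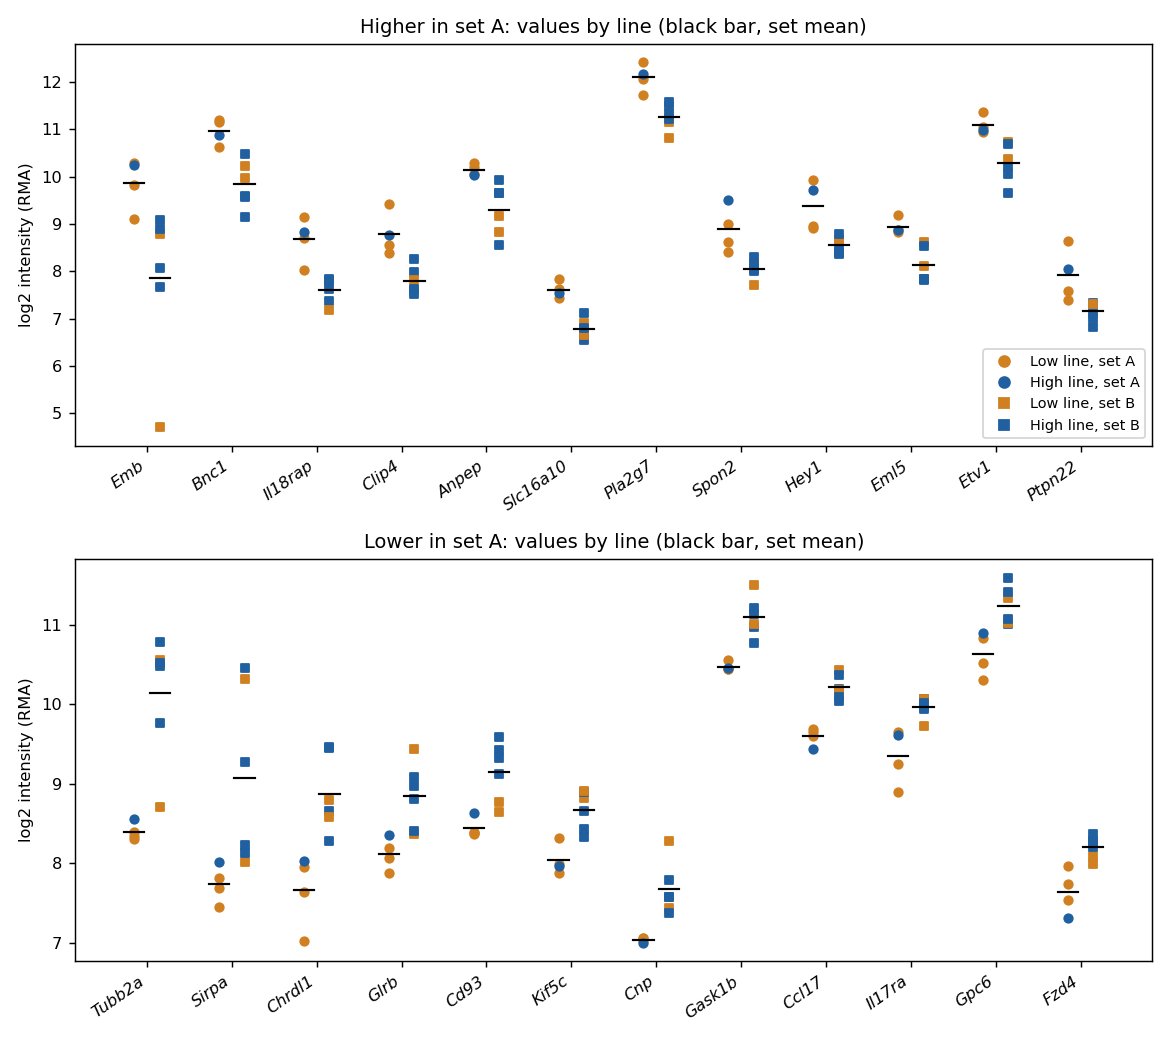
Log2 intensity (vertical axis) of the 12 genes with the largest difference in each direction among those without overlap, by line. Circles are set A, squares set B, orange Low and blue High lines, and black bars set means. Emb in 2D7, at 4.70, and Tubb2a in 4D11, at 8.71, stand apart from the other dim lines.

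The dim line nearest to the bright ones varied from gene to gene. Of the 229 separated genes, 4E3 was the dim line nearest to the bright range in 63, 4D11 in 46, 2D7 in 45, 3F4 in 35, 4D2 in 21 and 5C4 in 19. From the other side, 2F1 was the bright line nearest to the dim range in 83 genes, 5D4 in 58, 1E7 in 56 and 4H4 in 32. Clone 2D7, the dim line with the highest Ppef1, was thus not the one most often nearest to the bright lines.

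The gene whose profile was most like that of Ppef1 was Kif21a, a kinesin that moves along microtubules. Over the 10 lines its Pearson correlation with Ppef1 was 0.936, given as a description, since the genes were picked for it from all those tested. Kif21a (probe set 10431659, chromosome 15) read 8.76, 8.51, 8.58 and 8.73 in 1E7, 2F1, 4H4 and 5D4, and from 7.74 in 4D2 to 8.10 in 4E3 in the dim lines. The gap between the sets was more than the whole range within either, and the difference was 0.72 (SE 0.08). Among the bright lines Kif21a did not follow Ppef1. Clone 5D4, with the lowest Ppef1 of them (9.06), read above 4H4, with the highest (9.89). The correlation thus includes the gap in Ppef1 that made the sets. Lipg, which encodes endothelial lipase, had a correlation of 0.935 and measured 7.47 ± 0.19 in the bright (SD, n = 4) and 6.77 ± 0.14 in the dim lines (SD, n = 6). The transporter genes Slc16a10 (0.935), Slc4a11 (0.921) and Slc27a3 (0.911) followed, the last of a family of fatty acid transport proteins. Bnc1 and Otulinl had correlations of 0.911 and 0.910, and Fam89b one of 0.923 with a difference of 0.09 alone. The 2 others of the first 10 were 3110009E18Rik (0.935) and Gm10561 (0.906).

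The genes beside Ppef1 on chromosome X did not share its pattern. All of the 5 nearest tested genes on each side overlapped between the sets. Adgrg2, an adhesion receptor gene, differed by 0.65, with 6.12 in 4D2 and 8.52 to 9.50 in the other 9 lines. The other 9 neighbours, among them the pyruvate dehydrogenase gene Pdha1 and the chromatin gene Rbbp7, were higher in the bright lines by 0.01 to 0.24. Clone 4D2 was the lowest of all lines in 9 of the 10 neighbours, which lowers the dim means. The sign of Gja6, Nhs, Pdha1, Phka2, Rbbp7 and Txlng turned under at least 1 alternative setting.

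Over whole chromosomes, the genes separated on the higher side were dense on chromosomes 1, 12 and 19. Chromosome 1 held 17 of them among 940 tested genes, chromosome 12 held 14 among 550 and chromosome 19 held 17 among 550. Grouped after the values were seen, this was 48 of 2040 genes (2.35%), against 0.531% over the other chromosomes. The median differences were 0.052, 0.065 and 0.059 on these chromosomes and -0.053 to 0.021 on the others. With 1 line left out they stayed between 0.036 and 0.063, 0.044 and 0.109, and 0.045 and 0.103. Chromosome X, where Ppef1 lies, held 1 higher and 3 lower genes among 495, with a median of -0.003. Genes of 1 chromosome are not replicates, and no test was made.

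The lines did not contribute alike to these chromosomes. On chromosome 12 the median deviation of genes from their mean over the 10 lines was 0.085 in 1E7, 0.077 in 2F1, 0.038 in 4H4 and 0.073 in the dim line 4D11, but -0.070 in the bright line 5D4. On chromosome 19 it was 0.074 in 2F1, 0.066 in 4H4 and 0.047 in 5D4, but -0.045 in 1E7. On chromosome 1 the 4 bright lines read 0.004 to 0.034 and the dim lines -0.074 in 2D7 to 0.065 in 5C4.

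**Figure D3:**
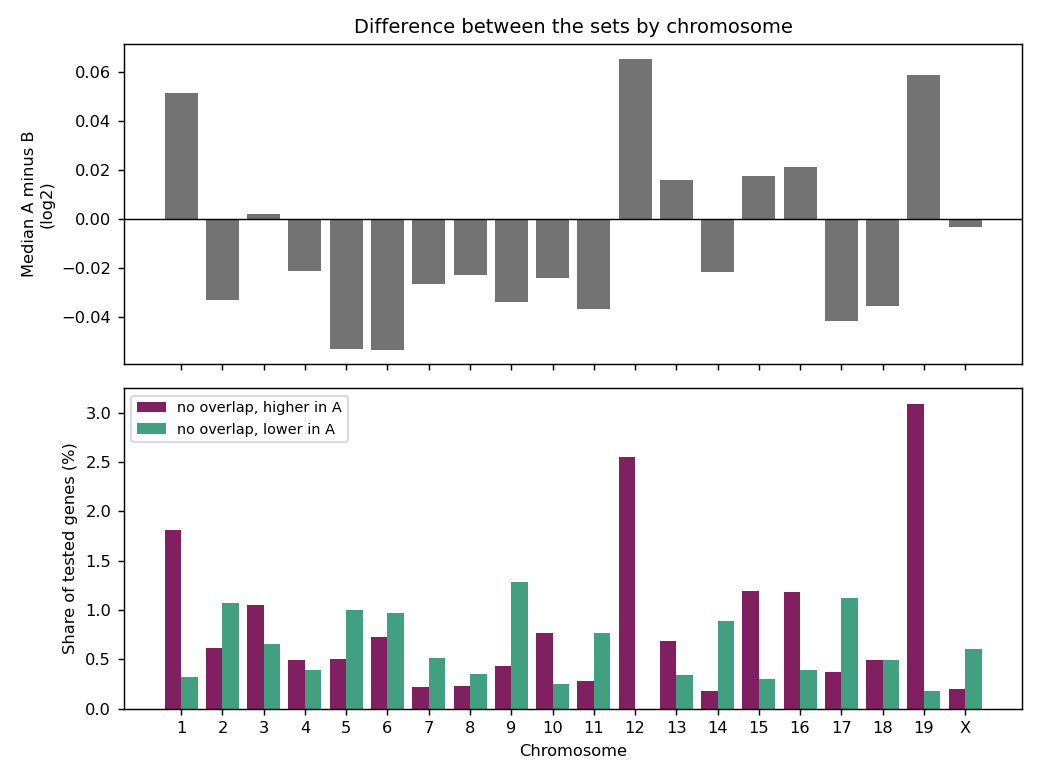
Upper panel, median difference of set A minus set B in log2 units (vertical axis) over the tested genes of each chromosome (horizontal axis). Lower panel, share of tested genes whose values do not overlap between the sets, in percent. Chromosomes 1, 12 and 19 have the highest medians, 0.052, 0.065 and 0.059, and the highest shares of genes higher in set A.

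Of 1047 genes in 34 lists of pathways and cell type markers, 906 were tested. Of these, 8 (0.883%) were higher and 5 (0.552%) lower without overlap, shares near the 0.756% and 0.64% over all genes tested. The 8 were the adhesion genes Alcam, Itga3, Pcdh7 and Itga8, the growth factor gene Fgf10, the PI3-kinase subunit gene Pik3r1, Hey1, and Pdia6, a protein disulfide isomerase of the endoplasmic reticulum. The 5 were Eln, which encodes elastin, the metalloprotease inhibitor gene Timp1, Fzd4, Hoxa11 and Runx1. Over all genes the median difference was -0.02.

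The list of integrins, cadherins and other adhesion genes gave 4 of the 8. Alcam, an adhesion molecule of the immunoglobulin family, was 11.61 to 11.92 in the bright and 10.00 to 11.49 in the dim lines, with 2D7 lowest. Itga3, an alpha chain of laminin-binding integrin, was 9.71, 9.73, 9.92 and 9.72 in 1E7, 2F1, 4H4 and 5D4 and 8.78 to 9.48 in the dim lines. Pcdh7, a protocadherin, was 10.92 ± 0.04 in the bright (SD, n = 4) and 10.53 ± 0.12 in the dim lines (SD, n = 6). The 36 tested members as a whole were balanced, with 17 higher, 19 lower and a median of -0.018 whose sign turned after centring.

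Calcium and phosphatase genes, the functional surroundings of Ppef1, showed no common direction. Of 32 tested members of the list of calcium and calmodulin signalling and EF-hand phosphatases, 14 were higher and 18 lower, with a median of -0.008 and none without overlap. The calmodulin gene Calm2 differed by -0.27 and the calcineurin catalytic subunit gene Ppp3cc by 0.24, both with overlap. The 28 tested genes of stress-activated kinases were balanced too, with 13 higher, 15 lower and a median of -0.006. Map3k5, which encodes the kinase ASK1, differed by 0.56, the ERK phosphatase gene Dusp6 by 0.39 and the JNK1 gene Mapk8 by -0.32, all with overlap.

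Genes of cholesterol and fatty acid synthesis had the highest list median, 0.155, with 26 of 28 members higher in the bright lines and none without overlap. The largest differences were in Idi1, an isomerase of isoprenoid synthesis, at 12.12 ± 0.20 in the bright (SD, n = 4) and 11.78 ± 0.23 in the dim lines (SD, n = 6), and in Hmgcs1, the synthase before HMG-CoA reductase, at 11.89 ± 0.08 and 11.59 ± 0.32. Mean deviations over the list were 0.27 in 1E7, 0.06 in 4H4, 0.03 in 5D4 and -0.03 in 2F1, and in the dim lines -0.28 in 4D11, -0.15 in 4D2 and 0.19 in 3F4. The high line was 1E7 and the low one 4D11, and 3F4 lay above 3 of the bright lines. Without 1E7 the median was 0.093.

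Interferon response genes had a median of 0.153, with 24 of 28 higher, and 5D4 stood highest, followed by the dim line 2D7. The mean deviation was 0.75 in 5D4, against -0.17 to -0.04 in the other bright lines. It was 0.30 in 2D7 and -0.31 to 0.002 in the other dim lines. Ifit1, an interferon-induced inhibitor of translation, read 9.42 in 5D4 and 8.04 to 8.20 in the other bright lines. Usp18, a protease that removes the ISG15 tag, read 9.84 in 5D4 and 7.87 to 8.46 in the others of its set. Without 5D4 the list median was -0.052, and without 2D7 or 4H4 it was 0.248 and 0.258.

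Collagen genes lay on the other side, with 19 of 24 lower in the bright lines and a median of -0.123. The basement membrane collagens Col4a2 and Col4a1 differed by -0.34 and -0.31, while the fibrillar Col1a1 and Col1a2 differed by 0.03 and 0.10. None of the 24 was without overlap, and the lowest mean deviation, -0.23, was that of 1E7. The highest were those of the dim lines 3F4 and 5C4, at 0.20 each. The bright line 2F1, at 0.06, lay above the dim lines 4E3, 4D11 and 4D2, at -0.03, -0.05 and -0.12. Without 5C4 the median was -0.074. Matrix glycoproteins and proteoglycans had a median of -0.083 and held Eln, at 7.76 to 7.86 in the bright and 7.87 to 8.35 in the dim lines. Without 1E7 that median was -0.053.

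Adipogenic transcription factors were lower in 24 of 31 cases, with a median of -0.081 and none without overlap. Mean deviations over the list were -0.075 to -0.018 in the bright lines and 0.019 to 0.083 in the dim High lines. In the dim Low lines 4D11 and 2D7 they were -0.070 and 0.016, so 4D11 lay with the bright lines. Cebpd, an early factor of fat cell formation, differed by -0.38, Tcf7l1 by -0.26 and Pparg by -0.20. With the adipogenic class as a covariate the Pparg difference was 0.07, of opposite sign. The Wnt pathway had a median of -0.089, where Fzd4 and the secreted Wnt modulator gene Sfrp2, at -0.78, stood against the receptor gene Ror2 at 0.45. The Notch list had a median of -0.082, although its target Hey1 was higher, and after repeated quantile normalization the median was -0.030. Imprinted genes had a median of -0.093, with 18 of 23 lower. After repeated quantile normalization it was -0.049. Mean deviations over this list were -0.20 to -0.02 in the bright lines and 0.14 to 0.16 in the dim High lines. The dim Low lines 2D7 and 4D11 were at -0.28 and 0.01, and 2D7 was the lowest of all lines. The part of the adipogenic class in these list medians was not tested.

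Small shifts in markers of other cell types stood beside those of the lists above. Epithelial and keratinocyte markers were lower in 22 of 23 cases with a median of -0.084, and 5C4 had the highest mean deviation, 0.22. Without 5C4 that median was -0.043, and after repeated quantile normalization it was -0.037. Macrophage and leukocyte markers had a median of -0.092, with 7 of 9 lower. It was -0.045 without 5C4 and -0.048 after repeated quantile normalization. Their part in the other differences was not tested. The 21 lists not described had medians from -0.077 to 0.054.

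Some genes outside the separated ones also had a sizeable difference of means although the sets overlapped, since the lines of a set were unlike one another. Of those named here, only Mest differed by more than Emb. Mest, an imprinted gene, differed by -2.17 with 6.56 to 6.90 in the bright lines, but the dim Low lines 2D7 and 4D11 were as low, at 6.60 and 6.72, and the dim High lines were at 9.39 to 10.93. Grb10, an imprinted adaptor of growth factor receptors, differed by 0.80. It was at 12.08 to 12.28 in the bright Low lines and 9.53 in 5D4, and as low as 6.75 in 2D7 among the dim lines. The surface antigen gene Cd24a differed by -1.44 with 6.62 in 1E7 and up to 11.14 in the dim lines. Map2, a microtubule-associated protein of neurons, differed by 1.16, and only 2D7 and 4D11, at 7.73 and 7.29, and 4D2, at 8.35, were well below the bright lines.

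The bright lines were closer to one another than the dim lines were. Over all tested genes without Ppef1, the mean Euclidean distance was 29.53 ± 1.99 among the bright lines (SD over 6 pairs), 36.86 ± 4.46 among the dim lines (SD over 15 pairs) and 35.31 ± 4.68 between the sets (SD over 24 pairs). Pairs share lines, so these SDs are descriptive. Each bright line had another bright line as its nearest. The nearest to 1E7, 2F1 and 5D4 was 4H4, at 28.24, 27.36 and 27.75, and the nearest to 4H4 was 2F1. The High line 5D4 was thus nearest to a Low line. With the 1000 genes of largest variance the means were 18.77, 23.46 and 23.28.

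The set was not closed, however. The dim High line 4E3 lay at a mean distance of 29.25 from the bright lines, as near as they lay to one another, and 34.70 from the other dim lines, although its own nearest line was 4D2 at 27.10. The dim Low lines 2D7 and 4D11 each had a bright line as nearest, 5D4 at 33.84 and 2F1 at 29.32. Clone 5C4 was the farthest from the bright lines, at a mean of 41.79, and 3F4 was its nearest line at 31.45. Without 5C4 the mean within the dim lines was 36.03 and that between the sets 34.01.

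**Figure D4:**
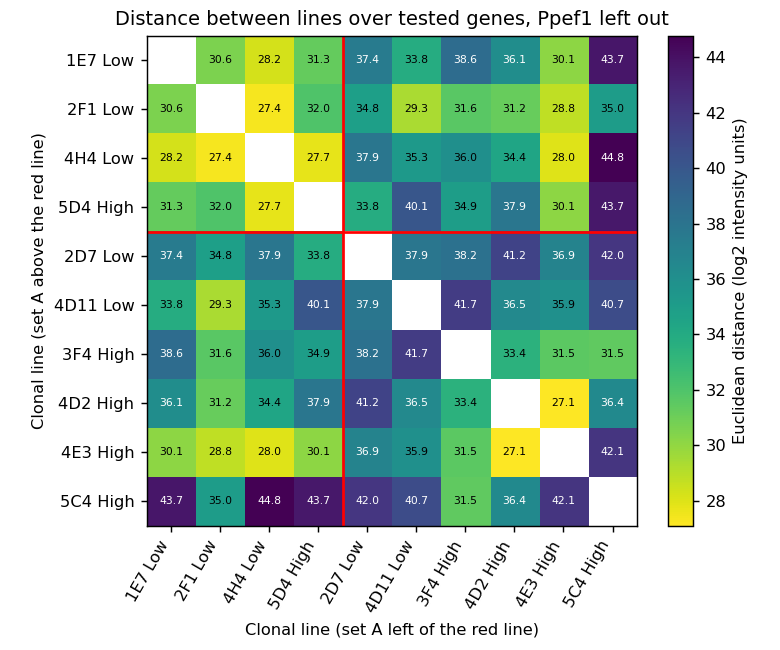
Euclidean distance in log2 intensity units between each pair of lines over the tested genes without Ppef1, darker for farther. Red lines divide set A (4 lines) from set B. The 6 distances within set A average 29.53, and the row of 4E3 shows a mean of 29.25 to set A.

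The next comparison asked how the adipogenic classes differed once Ppef1 brightness was taken into account. The classes came from triglyceride and not from the arrays. Which lines fell together was still set by Ppef1, and it was known beforehand that leaving out 5D4 raises the number of genes called. With the set as a covariate, 1 of 16410 genes (0.00609%) differed between High and Low lines at a limma adjusted p under 0.05. It was Angptl4, a secreted inhibitor of lipoprotein lipase. Without the covariate the same 1 gene was called, with a difference of 0.88 (limma adjusted p = 0.00118). Allowing for the set thus did not change the call.

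Angptl4 read 9.47, 9.44 and 9.68 in the bright Low lines 1E7, 2F1 and 4H4 and 10.30 in the bright High line 5D4. In the dim lines it was 9.33 and 9.46 in the Low lines 2D7 and 4D11 and 10.44, 10.23, 10.35 and 10.47 in the High lines 3F4, 4D2, 4E3 and 5C4. Low and High lines did not overlap in either set. Angptl4 was 0.90 higher in High lines (SE 0.09, 95% confidence interval 0.71 to 1.09), with a limma adjusted p of 0.00643. Without 4D11 the difference was 0.91 and the adjusted p in limma 0.0800, so 0 genes passed. The number called was 4 without 2D7, 2 without 2F1, 2 without 4H4 and 16 without 5D4. Without 5D4 no bright High line is left, so the class difference then comes from the dim lines alone. Those 16 are not all the same genes as the 16 called within the dim lines below. Before adjustment, 1272 genes had a p under 0.05. By contrast, Vstm2a differed by 2.32 and Mest by 2.08, and neither passed the threshold (limma adjusted p = 0.114 and 0.363).

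Within the 6 dim lines alone, 16 genes differed between the 4 High and the 2 Low lines at a limma adjusted p under 0.05. The Ppef1 rule leaves 5D4 out of this fit, which was known beforehand to raise the number of genes called. The adjusted p values below are therefore read as descriptions of these 6 lines. Of 16410 genes, 11 were higher (0.067%) and 5 lower (0.0305%) in High lines, and 1193 had an unadjusted p under 0.05. The dim lines enter both fits, so their calls are not independent, and Angptl4 was the 1 gene called in both. The Low side rests on 2 lines. The count was 8 without 3F4, 10 without 4E3 and 7 without 5C4, and without 2D7 or 4D11 it was 11 and 16, of which only 4 and 5 were among the 16. With either of these left out the Low side is 1 line, and the fit then takes the spread from the High lines and assumes that the lone Low line varies as they do.

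Genes known from fat cells were among the 11 higher genes. Fabp4, the fatty acid carrier of adipocytes, was 8.17 and 8.13 in 2D7 and 4D11 and 10.06, 10.06, 10.45 and 9.89 in 3F4, 4D2, 4E3 and 5C4. It rose by 1.96 (SE 0.15), which is 3.90-fold (limma adjusted p = 0.00307). Pparg rose by 0.89 from a mean of 11.20 to 12.09 ± 0.13 (SD, n = 4), with a limma adjusted p of 0.0417. That call was lost in most settings, since Pparg passed in 5 of 14 alternatives and its adjusted p reached 0.170. Angptl4 rose by 0.98. The adipogenic factor Cebpa did not pass, at 0.17 (95% confidence interval -0.31 to 0.64), and Plin4, a lipid droplet coat protein, missed the threshold at 1.15 (limma adjusted p = 0.0529).

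Vstm2a, a secreted immunoglobulin-domain protein linked to preadipocyte commitment, was 8.03 and 7.21 in 2D7 and 4D11 and 10.37 to 10.94 in the dim High lines, a rise of 3.01 (SE 0.23, limma adjusted p = 0.00307). Mest rose by 3.30 or 9.86-fold. Its dim Low values, 6.60 in 2D7 and 6.72 in 4D11, lay little above their arrays' 25th percentiles, 6.40 and 6.42. The fold of Mest is thus a rough figure. The matrix protein gene Dpt, dermatopontin, rose by 2.13, the small GTPase gene Rerg by 1.44, the tetraspanin gene Cd53 by 1.33, Sfrp2 by 1.28, the scavenger receptor gene Olr1 by 1.15 and the membrane protein gene Tmem176a by 1.07. Of these, Olr1, Rerg, Sfrp2 and Tmem176a passed in 6 of 14 alternatives and Dpt in 7. In all 16 genes the dim High and dim Low lines did not overlap, which the choice by p largely fixes.

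The 5 lower genes were led by Mid2, with the smallest p of the 16. Mid2, a ubiquitin ligase that binds microtubules, was 9.46 in 2D7 and 9.13 in 4D11 and 6.08 to 6.31 in the dim High lines, so it fell by 3.12 on the log2 scale (SE 0.12, limma adjusted p = 5.2e-05). All 4 dim High values lay below the 25th percentile of their arrays, so no fold is given. The bright High line 5D4 lay below that of its array as well. Mid2 thus passed the expression filter through Low lines alone, where it is high, and its p is only a description. Ctsh, the lysosomal protease cathepsin H, was 9.21 and 9.70 in the dim Low and 6.51 to 6.88 in the dim High lines. The other 3 were Lysmd2, which fell by 2.03, the protocadherin gene Pcdh9, which fell by 1.30, and Cachd1, which fell by 1.13. Ctsh, Fabp4 and Vstm2a were called under all 14 alternatives run, and Mid2 under the 13 in which it was tested, those with a single Low line included. Angptl4, Cachd1, Cd53, Lysmd2 and Mest passed in 9 of 14 and Pcdh9 in 8 of 13.

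The 16 genes were chosen for their difference among the dim lines, so the values of the bright lines are set beside them as a description, and a weaker pattern there follows in part from that choice. The bright High line 5D4 lay on the Low side of the midpoint between the dim classes for 9 of the 16 genes. For Mest it read 6.62, for Fabp4 8.63 and for Dpt 7.89, each within or below the range of the bright Low lines. For Angptl4, at 10.30, and Mid2, at 6.37, it lay with the dim High lines. The 3 bright Low lines were all on the Low side for 6 genes. Mid2 was 7.71 in 1E7, 8.27 in 2F1 and 6.38 in 4H4, and Ctsh 6.79, 8.08 and 7.50, between the dim classes or beside the High one. The difference of 5D4 from the mean of the bright Low lines had the sign of the dim lines for 6 of the 16.

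**Figure D5:**
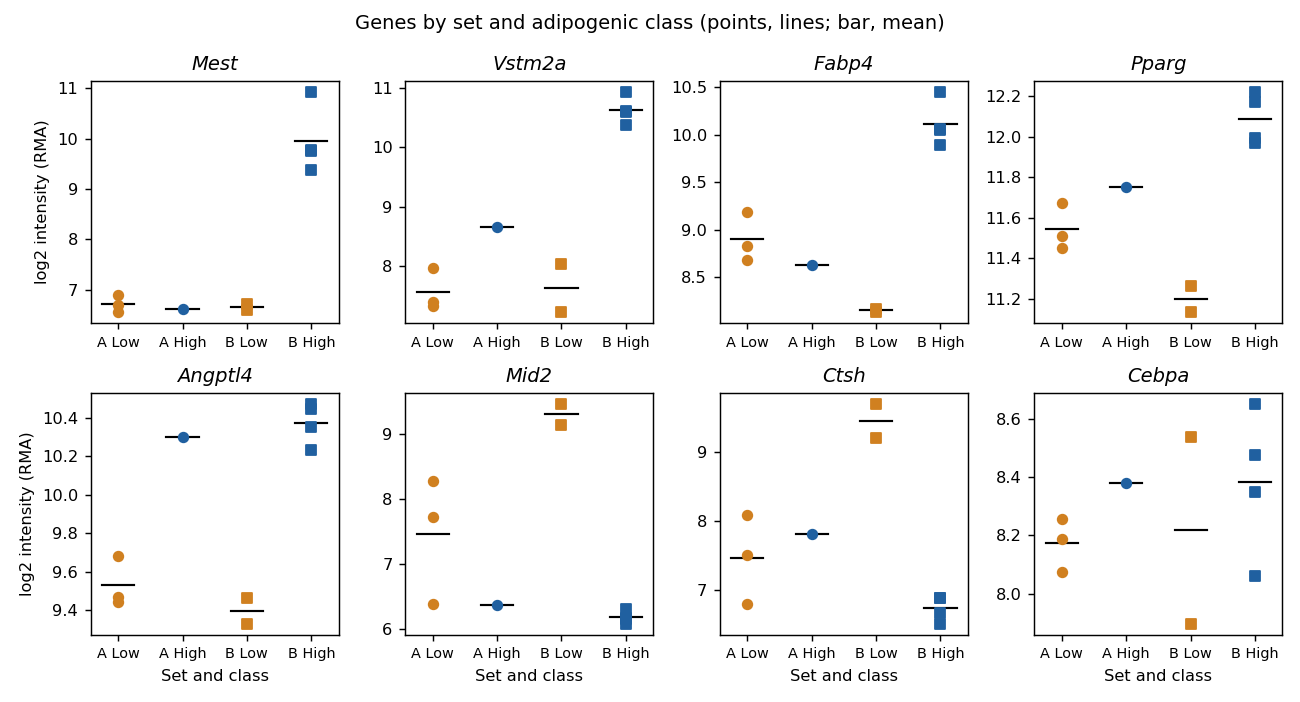
Log2 intensity (vertical axis) of 8 genes in bright Low (3 lines), bright High (5D4), dim Low (2 lines) and dim High lines (4 lines), with a bar at each mean. Mest, Vstm2a and Fabp4 are highest in the dim High lines, at means of 9.96, 10.63 and 10.11, while Angptl4 is also high in 5D4, at 10.30.

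The class difference of the bright lines cannot be separated from clone 5D4, their single High line. An interaction term of class and set in limma assumes that 5D4 varies like the other lines, whereas its own spread was not measured. None of the 16 genes passed it, and the smallest adjusted p in limma was 0.0501, that of Fabp4, so a difference between the sets was not shown for them. The 2 genes that passed are those in which 5D4 alone stood apart. Ildr2, an immunoglobulin-like receptor gene, was 9.93 in 5D4 and 7.35 to 7.74 in the other 9 lines. Cd200, an immunoglobulin-type surface protein, was 8.41 in 5D4 and 6.35 to 6.75 in the others. These values describe 5D4 and not the High class among bright lines.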

How the data were processed

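Total RNA of 10 lines had been hybridised to whole-transcript arrays, 1 array per line, per the labels' protocols. The deposited values are log2 intensities, and RMA, without a version, is named in the submitters' processing notes. RMA aligns the arrays' distributions and so hides a shift common to most genes. Of 34760 probe sets, 21640 had 1 gene symbol, 1321 several and 11799 none in the annotation used here. They gave 19937 genes, the brightest probe set standing for each. Genes above the 25th percentile of their array in 4 or more arrays were tested, which left 16410 genes without Ppef1. Only 2 of them passed through the bright lines alone.

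Sets and classes were fitted in limma 3.58.1 under R 4.3.3, with lmFit, eBayes, two-sided tests and Benjamini and Hochberg's adjustment over all tested genes, and gene order came from RefSeq GRCm38.p6. The sets, lists and tests were chosen with earlier results of these data known. Named genes were the 12 most different without overlap in each direction, up to 4 per list, 5 neighbours of Ppef1 on each side, 10 most correlated genes, a panel, and genes called between classes. The genes called within the dim lines and by interaction were named in full. The limma script was tested on simulated data. Alternatives covered the filter, probe set, normalization, variance model, weights, covariates and each line left out. The number of arrays sets the precision.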

Additional observations from a re-analysis of the deposited data

Results flagged for a closer look

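Among 65 genes and 130 groups of 4 or 6 lines examined, 1 line was flagged as apart from the rest of its set in 7, where about 6.5 flags arise by chance. Genes were named partly for their values on these arrays, so the 6.5 is only a rough guide. The 7 do not cover every gene in which 1 line stood apart, such as Adgrg2 in 4D2. In the dim lines, Emb was 4.70 in 2D7 against 7.67 to 9.09, and the lysozyme gene Lyz2 was 8.90 in 3F4 against 7.73 to 7.92. In the bright lines, Grb10 was 9.53 in 5D4 against 12.08 to 12.28, and Cd93 was 8.64 in 5D4 against 8.37 to 8.40. Eml5 was 9.20 in 4H4 against 8.83 to 8.88, Gask1b was 10.56 in 4H4 against 10.44 to 10.46, and Tmem176a was 10.84 in 2F1 against 11.45 to 11.54.

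In 2 genes the value of 5D4, the single bright High line, gave an interaction of class and set. It was 2.49 for Ildr2 (SE 0.16, limma adjusted p = 0.000308) and 1.71 for Cd200 (SE 0.20, limma adjusted p = 0.0484). The errors come from the other lines, since the spread of a bright High group could not be measured, and the values show that 5D4 stood apart in these genes, not that the classes differ more among bright lines.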

How the results depend on the processing

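Counts of called or separated genes moved with the settings, and so did some single differences between the bright and dim lines. That of Grb10 ran from 0.001 to 1.72, and that of Plin4 changed sign in 3 of 20 alternatives. Genes higher in the bright lines in limma numbered 4 with trend and robust variance and with array weights, 0 with the adipogenic class as a covariate or with clones blocked by the first digit of their names, and 0 to 5 with a line left out. Lower genes numbered 1 with repeated quantile normalization, trend and robust variance or array weights, and 0 to 3 with a line left out. Genes without overlap numbered 148 to 345 higher and 116 to 526 lower with a line left out, most without 2F1 (345 and 526) and without 4E3 (251 and 300), and a count also moved by over 1.5 times without 1E7, 2D7, 3F4, 4D11 or 5D4. The lower count was 67 after centring. With the set as a covariate, 0 to 16 genes differed between classes with a line left out. The 16 came without 5D4, where the dim lines alone give the class difference. Within the dim lines the 16 became 8 with the median filter, 7 with repeated quantile normalization and 7 to 16 with a line left out. Mean distances with the 1000 most variable genes were 18.77 within the bright lines, 23.46 within the dim lines and 23.28 between them. Distances with each line left out were added after the data were seen. The cause of these changes was not tested, apart from smaller sets overlapping less. No paired analysis was possible because the replicate numbers only name lines in accession order.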

Other observations

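In the stretch of chromosome X around Ppef1, clone 4D2 stood below the other lines. Of the 10 neighbours of Ppef1 examined, 4D2 was the lowest of all 10 lines in 9, with a median of -0.63 relative to the median of the other 9 lines, and no other line was lowest in more than 1. This was seen after the values were known and was not tested.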
